A study of Brassica napus with 15 samples.

Results

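Among the 101040 coding genes of Brassica napus (oilseed rape) measured in dry and imbibed seeds, 12 genes had an RNA that the dry seed stored, that was still at 0.81 to 1.93 times its stored level after 12 h of imbibition and that was at most 9.62% of its 12 h level at 36 h. They were chosen by their measured profile. A gene had to have at least 10 TPM (a length-corrected share of all RNA sequenced in a library) in the dry seed of every accession (C129, C033 and C032), at 0 hai (hours after imbibition), between 0.8 and 2 times that value at 12 hai, at most 10% of the 12 hai value at 36 hai, and at most 25% of the 0 hai value at 72 hai, each time within the same accession. The values at 0, 12, 36 and 72 hai are therefore given as a description without a test. The libraries at 2 hai were not used to choose the genes, and no bound compared the accessions with each other.

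The series holds 15 libraries, 1 for each of the 3 winter oilseed rape accessions at 0, 2, 12, 36 and 72 hai, and the study describes C129 as the fastest of the 3 to germinate. For its germination, metabolite and hormone assays the study describes seeds on moist paper in the dark at constant temperature. Its methods do not state the conditions of the RNA libraries separately. No other treatment is named, and 0 hai is the dry seed. Each library was made from total RNA of 3 pooled biological replicates of 30 seeds, so that a single accession and time point has no replicate error. Values over the 3 accessions are given as mean ± SD with n = 3, an error that holds differences between accessions as well as between seed lots and libraries, which cannot be told apart.

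A dry seed carries mRNA made during maturation on the mother plant. Part of it is translated when water enters, before the embryo makes much new RNA, and part is broken down, so that the stored set is replaced as germination proceeds. TPM of whole seeds is a share of the RNA pool, and fewer cells of a type and less RNA per cell cannot be told apart in it.

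Depth sets how well low values are known. Read equivalents, the coverage of a gene times its length over a read length of 100, summed to between 19.4 M and 41.7 M per library over coding genes. The coding genes held between 608866 and 904932 TPM of a library's total, and median-of-ratios factors, which align the libraries on the genes seen in all of them, ranged from 0.73 to 1.55. The seed label was checked with genes matched to storage protein and oleosin loci of Arabidopsis. Only 2 such genes had a match, and their sum was 79.1 to 100.2 TPM at 0 hai, 75.1 to 88.9 TPM at 2 hai, 17.4 to 48.8 TPM at 12 hai, 0.397 to 3.68 TPM at 36 hai and at most 0.653 TPM at 72 hai. The 3 photosystem genes that mark green seedlings summed to at most 2.81 TPM up to 36 hai and to 27.7 to 47.7 TPM at 72 hai, and no endosperm marker was matched.

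The choice narrowed sharply at the last steps. C129 had 13156 genes with at least 10 TPM in the dry seed, of which 7868 stayed within the window at 12 hai, 119 of these had lost at least 90% by 36 hai and 99 met every bound. In C033 the numbers were 10894, 6339, 88 and 73 genes, and in C032 they were 10485, 7866, 208 and 173 genes. Over all 3 accessions 8806 genes were stored, 3891 of these were kept at 12 hai, 14 were lost at 36 hai and 12 stayed low at 72 hai. Without the window at 12 hai, 412 stored genes had lost at least 90% between 12 and 36 hai in every accession, and most of these had left the window by 12 hai in at least 1 accession. The choice was made on TPM as deposited, and after median-of-ratios scaling of the libraries 11 genes met the bounds, of which 4 were among the 12. The map of stored genes shows the 12 genes at the edge of the main cloud rather than within a separate group.

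**Figure D1:**
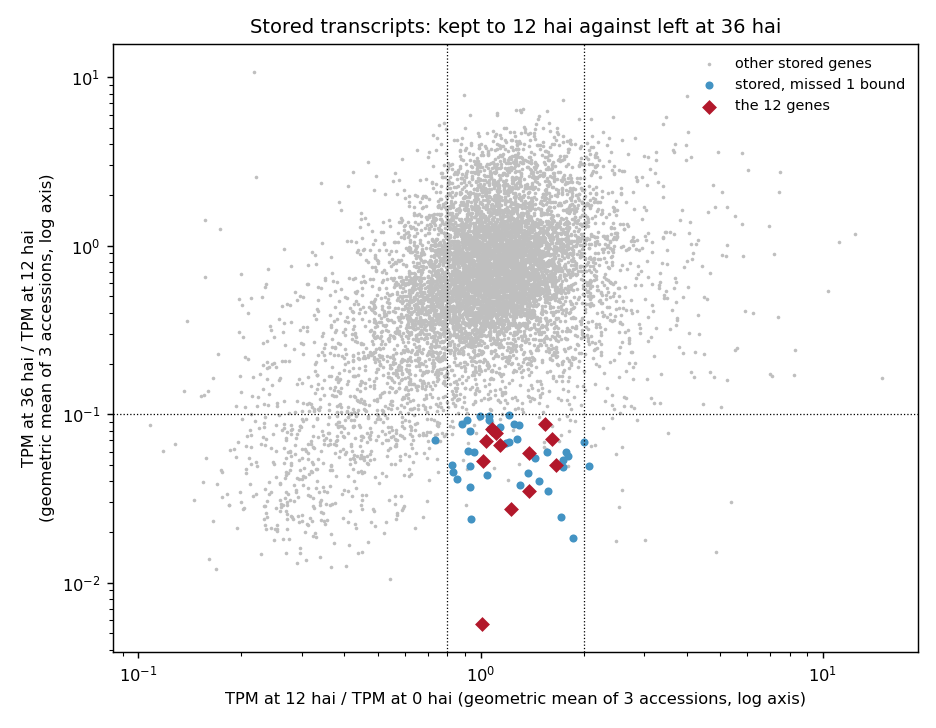
Each point is a stored gene, with the ratio of TPM at 12 hai to 0 hai on the horizontal axis and of TPM at 36 hai to 12 hai on the vertical axis, both as geometric means of 3 accessions on log axes; 8717 genes are drawn and 89 with a value of 0 are left out. Diamonds are the 12 genes, larger dots are 38 of the 44 genes that missed 1 bound, and dotted lines are the bounds at 0.8, 2 and 10%; BnaC05g13130D lies far below the other diamonds.

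None of the 12 genes has a function in the sources used here. None had an Arabidopsis match in the part of the study's table at hand, which names matches for 3060 coding genes but only for 26 of the 3891 genes that were stored and kept. BnaC05g32780D alone had a symbol in RefSeq (Da-Ae assembly), and that symbol repeats its locus name. The genes are therefore described by locus, structure and level, and no role is given to them. Lists of seed proteins, hormone genes, chaperones, translation and RNA decay genes held 0 of the 12 genes, which says nothing on their roles since so few stored genes carry a match.

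The 12 genes lie on 12 scaffolds of the B. napus assembly of Chalhoub et al., no other gene model overlaps any of them, and 7 are on the plus strand and 5 on the minus strand. By their locus names 11 belong to the C subgenome, which came from Brassica oleracea, and 1 to the A subgenome, which came from Brassica rapa. That is 91.7% in C, against 51.1% of the genes that were stored and kept and 55.8% of all coding genes with a named subgenome. This share depended on the bounds and on the scaling. Of the 44 genes that missed a single bound 56.8% were in C, of the 59 genes found with a loss to 20% at 36 hai 54.2%, and of the 11 genes found after median-of-ratios scaling 63.6%. Locus names place 3 genes in linkage group C03, 3 in C05, 2 in C04, 1 each in C01, C06 and A03, and 1 on a C scaffold with no linkage group. They have 1 to 10 exons with a median of 4, and a spliced length of 984 to 2202 bases with a median of 1447.5, where the genes that were stored and kept have a median of 7 exons and 1728 bases.

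BnaC05g32780D, BnaA03g35430D, BnaC05g13130D and BnaC06g07060D were lower at 72 hai than at 36 hai in all 3 accessions. BnaC05g32780D (scaffold LK032161, 247295 to 249875, plus strand, 4 exons) had the highest mean of the 12 over 0 and 12 hai, 254 TPM. Its RNA was at 292, 296, 283, 18.2 and 3.96 TPM in C129 at 0, 2, 12, 36 and 72 hai. In C033 the same times gave 221, 222, 199, 18.3 and 5.22 TPM, and in C032 217, 267, 315, 29.1 and 2.84 TPM. In C129 and C033 the TPM hardly moved for 12 h, with 0.97 and 0.90 times the dry seed value, while C032 stood at 1.45 times. This rests on TPM as deposited, since the gene did not meet the bounds after median-of-ratios scaling. At 36 hai 6.43% (C129), 9.18% (C033) and 9.26% (C032) of the 12 hai value was left, and at 72 hai no accession kept more than 2.37% of the dry seed value.

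BnaA03g35430D (scaffold LK031828, 374616 to 377628, plus strand, 4 exons) is the gene of the A subgenome. Along the time course it had 152, 155, 211, 6.83 and 1.64 TPM in C129. C033 had 122, 127, 136, 11.2 and 2.87 TPM and C032 114, 126, 197, 14.8 and 1.35 TPM. Its highest TPM came at 12 hai in each accession, at 1.38, 1.12 and 1.73 times the dry seed in C129, C033 and C032. The median-of-ratios factor rose by more than this ratio in C129 (0.985 to 1.55) and C033 (0.763 to 0.953). The rise from the dry seed in these accessions therefore did not hold under that scaling. C129 had the lowest TPM of the 3 at 36 hai although it had the highest at 12 hai. In C129 3.24% was left, against 8.25% in C033 and 7.53% in C032.

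BnaC05g13130D (scaffold LK032462, 50388 to 52834, minus strand, 4 exons) lost the largest part of its RNA among the 12 in every accession. C129 libraries had 92.6, 83.8, 76.7, 0.438 and 0.10 TPM. The values were 57.3, 55.8, 48.8, 0.137 and 0.0588 TPM in C033 and 99.4, 106, 143, 1.62 and 0 TPM in C032. At 36 hai 0.571% (C129), 0.280% (C033) and 1.13% (C032) of the 12 hai level was left, which is a fall of 175-fold, 357-fold and 88.5-fold. The late values rest on few reads. The 36 hai value of C033 corresponds to 3.68 read equivalents, with an exact Poisson 95% interval of 0.0404 to 0.380 TPM, and that of C129 to 16.8 read equivalents, with 0.258 to 0.709 TPM. At 72 hai C032 is listed at 0, with an exact Poisson 95% upper limit of 0.105 TPM and a floor of 0.0852 TPM for 3 reads. Such intervals cover counting error only, and they treat both reads of a pair as independent, so that they may be too narrow. C033 had less of this RNA than C032 in the dry seed and at 2 and 12 hai, where the 3 libraries of C033 lay between 48.8 and 57.3 TPM and those of C032 between 99.4 and 143 TPM.

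BnaC06g07060D (scaffold LK032305, 284976 to 287622, minus strand, 4 exons) has the longest transcript model of the 12, with 2202 bases. C129 showed 26.9, 26.4, 32, 0.700 and 0.116 TPM over the 5 times. C033 showed 19.4, 18.5, 20.7, 0.874 and 0.0515 TPM and C032 20.3, 21.5, 29.6, 0.651 and 0.0995 TPM. The 3 accessions were close to each other at 36 hai, between 0.651 and 0.874 TPM, and at 72 hai all lay at or below 0.116 TPM, on 3 to 7.91 read equivalents. Less than 0.5% of the dry seed level was left there, from 0.265% in C033 to 0.491% in C032.

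In TPM, BnaC03g66530D, BnaC05g48940D and BnaCnng35940D were higher at 72 hai than at 36 hai in all 3 accessions, though still at most 24% of the dry seed. BnaC03g66530D (scaffold LK032217, 262693 to 264756, plus strand, 3 exons) had 44.9, 45.0, 41.1, 2.62 and 7.46 TPM in C129. For C033 the series was 45.0, 43.1, 37.8, 3.64 and 7.02 TPM and for C032 33.1, 34.5, 59.5, 4.53 and 7.94 TPM. From its low point the RNA came back to 2.84, 1.93 and 1.75 times the 36 hai value in C129, C033 and C032. C129 and C033 were close to each other up to 12 hai, while C032 began lowest and was highest at 12 hai.

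BnaC05g48940D (scaffold LK032808, 114084 to 116388, plus strand, 10 exons) had the most exons. Its values were 24.9, 27.1, 38.1, 2.77 and 4.60 TPM in C129. They were 16, 13.3, 24.7, 1.38 and 2.41 TPM in C033 and 19.4, 21.5, 37.3, 1.15 and 2.53 TPM in C032. In TPM this gene had the largest ratio of 12 to 0 hai over the accessions, 1.66 as a geometric mean. It was at 1.53 to 1.92 times the dry seed at 12 hai. By 36 hai 7.26% (C129), 5.58% (C033) and 3.09% (C032) was left.

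BnaCnng35940D (scaffold LK033860, 30394 to 33095, plus strand, 6 exons) has the shortest model, with 984 bases, and the lowest mean of the 12 over 0 and 12 hai, 23.97 TPM, just below BnaC06g07060D with 24.8 TPM. C129 had 25.2, 23.6, 29.9, 2.80 and 5.10 TPM. C033 followed with 16.1, 18.4, 25.9, 2.30 and 3.07 TPM and C032 with 15.9, 20.3, 30.7, 2.47 and 2.77 TPM. All 3 accessions were between 25.9 and 30.7 TPM at 12 hai, closer than in the dry seed. What was left at 36 hai, 8.04 to 9.39%, was near the bound of 10% in each accession. The 72 hai value was 1.82, 1.33 and 1.12 times that at 36 hai in C129, C033 and C032. Exact Poisson intervals of these times overlapped in C033 and in C032 (1.86 to 3.17 and 2.19 to 3.49 TPM). The median-of-ratios factor of C032 rose by more than its ratio, from 0.99 to 1.32. Its rise in C032 therefore did not hold under that scaling.

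The direction from 36 to 72 hai in TPM differed between accessions in the other 5 genes, though not always beyond counting error. BnaC01g04250D (scaffold LK031789, 2524599 to 2526050, minus strand) is the gene without an intron. It had 172, 187, 303, 16.4 and 34.1 TPM in C129. The C033 libraries gave 141, 147, 206, 18.1 and 18.3 TPM and the C032 libraries 157, 187, 259, 19.5 and 13.2 TPM. In TPM its 12 hai value was above the dry seed in each accession, at 1.76, 1.46 and 1.65 times in C129, C033 and C032. The median ratio of all coding genes was 1.45, 1.15 and 1.46 in the same order. The median-of-ratios factors also rose over this step in each accession, so that the rise of this gene is smaller under that scaling. At 72 hai C129 held 34.1 TPM, the highest late value of any of the 12 genes, against 18.3 TPM in C033 and 13.2 TPM in C032.

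BnaC04g07270D (scaffold LK031867, 742513 to 744911, minus strand, 7 exons) had one of the smallest mean changes of TPM up to 12 hai. C129 gave 141, 138, 119, 6.23 and 10 TPM. C033 gave 99.2, 102, 99.7, 7.98 and 6.93 TPM and C032 99.0, 124, 132, 10.3 and 8.10 TPM. In C033 the first 3 times differed by less than 3 TPM, whereas C129 drifted down and C032 up. These courses hold for TPM as deposited, since the gene did not meet the bounds after median-of-ratios scaling. Between 5.25 and 8.0% was left at 36 hai.

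BnaC04g09610D (scaffold LK031836, 721850 to 724111, plus strand, 6 exons) had a higher TPM in C129 than elsewhere. There it had 55.6, 53.3, 45.3, 2.87 and 1.73 TPM. C033 reached 28.1, 26.5, 30.1, 2.09 and 1.45 TPM and C032 31.6, 37.2, 38.4, 1.30 and 1.91 TPM. C129 was above both other accessions at each time up to 36 hai, and at 0.81 its ratio of 12 to 0 hai was the lowest of any gene and accession, just inside the bound of 0.8.

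BnaC03g74760D (scaffold LK033987, 15531 to 17033, minus strand, 3 exons) was the most even between accessions in the dry seed. It was at 31.5, 37.0, 43.0, 0.671 and 0.938 TPM in C129. It was at 33.1, 36.3, 37.8, 2.77 and 1.15 TPM in C033 and 28.8, 34.4, 49.0, 1.86 and 0.50 TPM in C032. The accessions parted at 36 hai, where 1.56% was left in C129, 7.31% in C033 and 3.79% in C032.

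BnaC03g72710D (scaffold LK034674, 4315 to 5761, plus strand, 2 exons) also had a higher TPM in C129. C129 had 41.8, 38.8, 41.1, 2.82 and 3.33 TPM. The C033 values were 21.8, 22.7, 24, 2.05 and 1.45 TPM and the C032 values 29.7, 32.7, 40.6, 1.99 and 1.68 TPM. C129 was highest at each of the 5 times and C033 lowest at each time but 36 hai. After median-of-ratios scaling the mean log2 difference of C129 over the 5 times was 0.03 from C032 and 0.25 from C033.

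**Figure D2:**
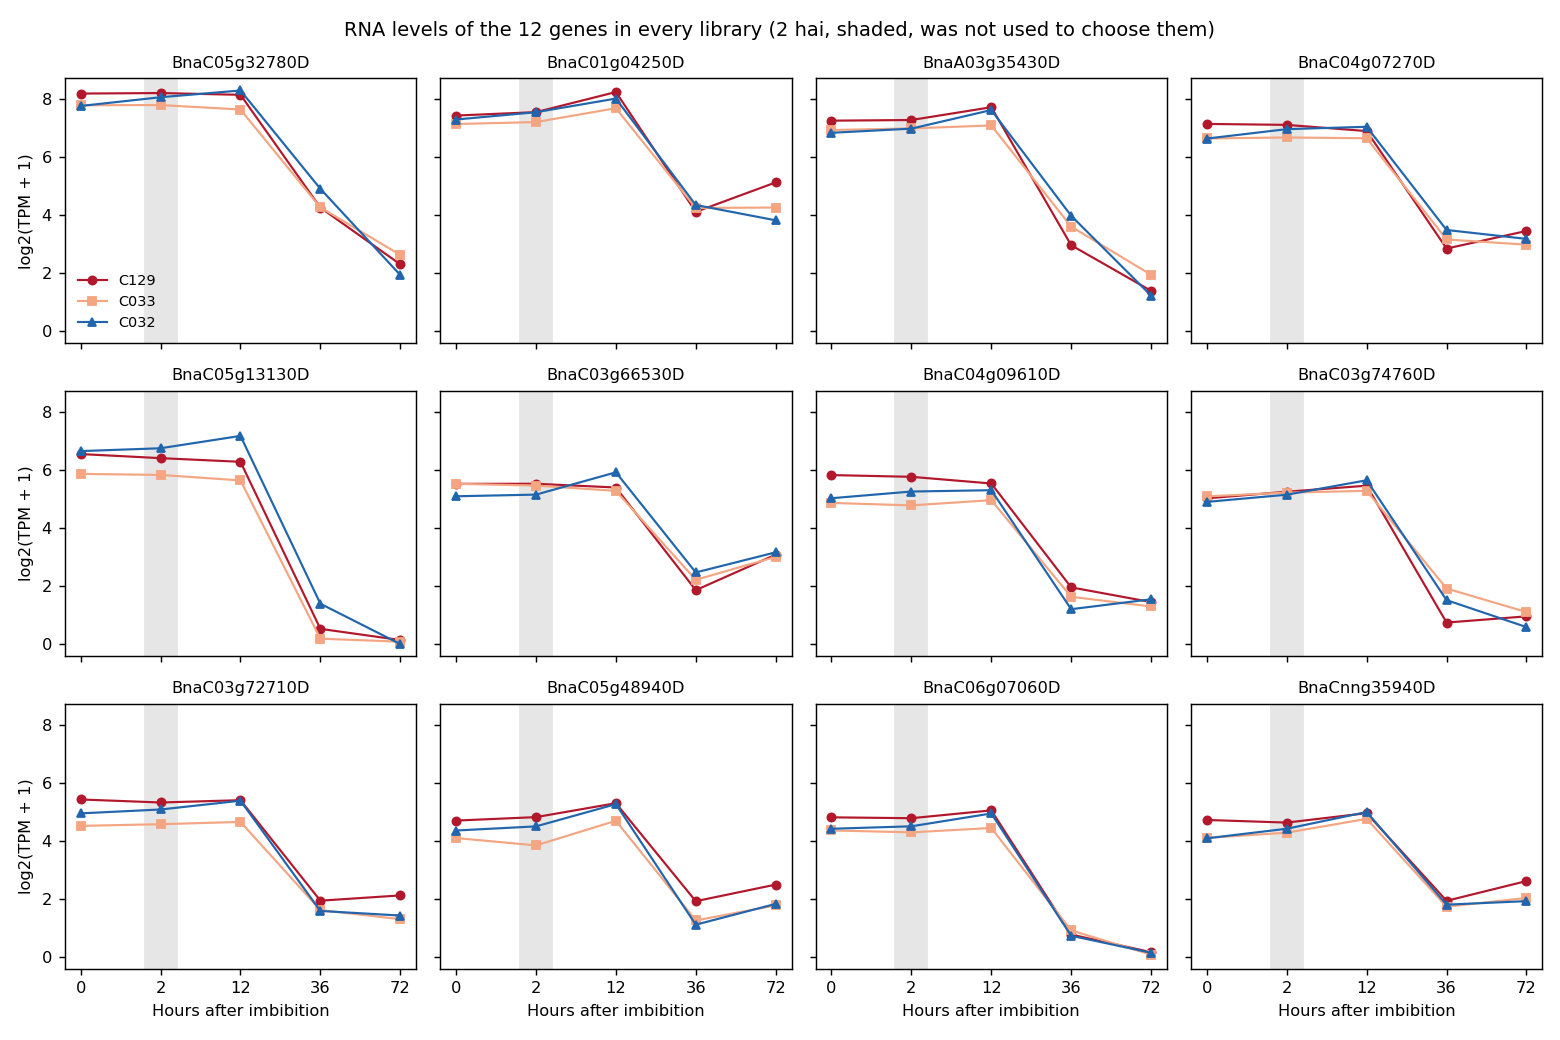
Each panel is 1 of the 12 genes, with hours after imbibition on the horizontal axis and log2(TPM + 1) on the vertical axis, and a line for each accession with 1 library per point. Levels at 12 hai are 0.81 to 1.93 times those at 0 hai, and drop by 36 hai in every accession. In TPM BnaC03g66530D, BnaC05g48940D and BnaCnng35940D turn up again at 72 hai in all 3. For BnaCnng35940D the rise lies within counting error in C033 and C032.

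Added together, the 12 RNAs made up 928 ± 151 TPM at 0 hai, 985 ± 141 TPM at 2 hai, 1161 ± 237 TPM at 12 hai, 74.5 ± 13.3 TPM at 36 hai and 55.3 ± 15.8 TPM at 72 hai (SD, n = 3 accessions). The sums at 36 hai, 63.3 to 89.3 TPM, and at 72 hai, 42.9 to 73.1 TPM, overlap between the times. At the median gene 5.87% of the 12 hai level was left at 36 hai in C129, 8.13% in C033 and 6.21% in C032, where the genes that were stored and kept had 75.1%, 75.3% and 71.4% left. C033 kept the largest part of the 3 accessions in 8 of the 12 genes (66.7%), against 37.8% of the genes that were stored and kept. C129 kept the smallest part in 7 of the 12 (58.3%), against 32.1% of those genes and 48.3% of the 412 genes with a loss of at least 90%. At 72 hai the median gene had 5.10% of its dry seed level in C129, 5.92% in C033 and 5.85% in C032. Here too the choice fixed an upper limit, so that the spread below the limit is the part left to describe. It was widest at 72 hai, where BnaC05g13130D and BnaC06g07060D were below 0.5% and BnaC03g66530D, BnaC05g48940D and BnaCnng35940D were above 13.0% in every accession.

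**Figure D3:**
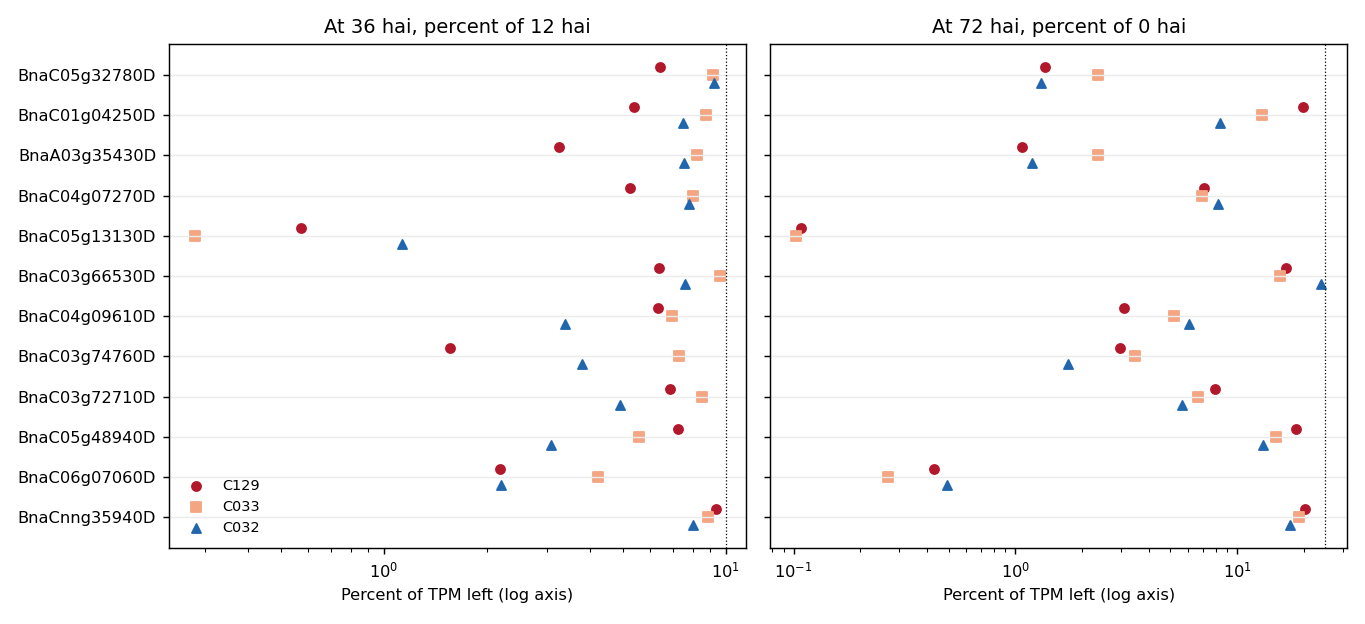
Percent of the 12 hai TPM left at 36 hai (left) and of the 0 hai TPM left at 72 hai (right) for each of the 12 genes on log axes, with a point for each accession and a dotted line at the bound of 10% or 25%. Most genes lie between 3 and 10% at 36 hai, BnaC05g13130D lies at or below 1.13%, and its C032 point at 72 hai is at 0 and not drawn.

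Several genes lay close to a bound. At 36 hai the values just inside 10% were 9.39% in C129 (BnaCnng35940D), 9.62% in C033 (BnaC03g66530D) and 9.26% in C032 (BnaC05g32780D), and those just outside, among genes that missed only that bound, were 10.2%, 11% and 10.3%. For the upper limit of 2 at 12 hai the nearest inside was 1.93 in C032 (BnaCnng35940D) and the nearest outside 2.22 in C032 and 2.07 in C129. At the lower limit of 0.8 they were 0.81 (BnaC04g09610D) and 0.79 in C129. Of the 44 genes that missed 1 of the 12 bounds, 22 missed the window at 12 hai, 12 above it and 10 below it, 16 the loss at 36 hai, 5 the minimum in the dry seed and 1 the level at 72 hai. The study names 1 of these by function. BnaC05g46680D is a copy of GID1a, a gibberellin receptor, and missed the window because its ratio of 12 to 0 hai was 3.41 in C032, beside 1.52 in C129 and 1.74 in C033. It had 2.12, 4.22 and 5.19 TPM at 36 hai in C129, C033 and C032, against 90.1, 71.3 and 59.6 TPM at 12 hai.

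The ratios of 12 to 0 hai were smallest, as geometric means of the accessions, in BnaC05g13130D (1.01), BnaC04g09610D (1.02) and BnaC04g07270D (1.04), and largest in BnaC05g48940D (1.66), BnaC01g04250D (1.62) and BnaCnng35940D (1.54). The median ratio of the 12 was 1.08 (C129), 1.09 (C033) and 1.56 (C032). C032 had the largest ratio in 11 of them. Among the genes that were stored and kept C032 had the largest in 60.0%, with medians of 1.26 (C129), 1.04 (C033) and 1.34 (C032). C033 had the lowest 12 hai level of the 3 accessions in all 12 genes, as it had in 78.8% of the genes that were stored and kept, and these orders move with the scaling of whole libraries.

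At 2 hai, the time the choice did not use, the 12 RNAs were at 0.83 to 1.27 times their dry seed level and none passed the test. The 0 hai libraries, to which they are compared, were used by the choice, so that this step is not fully independent of it. C129 had a median ratio of 0.99 and C033 of 1.01, whereas C032 had 1.14. The ratio in TPM was largest in C032 for all 12 genes, and for 64.5% of the genes that were stored and kept. From 0 to 2 hai the median-of-ratios factor rose from 0.727 to 0.798 in C032 and from 0.985 to 1.04 in C129. In C033 it fell from 0.763 to 0.743, so that this order moves with the scaling of whole libraries. Changes were tested with limma on log2(TPM + 1), with time and accession as terms, and calls needed both an adjusted p under 0.05 and a log2 value beyond 1. Since the 3 accessions stand in for replicates at each time, a change seen in 1 of them adds to the noise. From 0 to 2 hai 0 of the 12 genes were called by limma, where 0.00188% of the 53233 genes tested were called. An unadjusted p under 0.05 was found for 0 of the 12, against 1.70% of all genes. The estimates ran from −0.03 for BnaC05g13130D to 0.20 for BnaC03g74760D (95% interval −0.29 to 0.69), and the widest interval, for BnaA03g35430D, was −0.51 to 0.66. No interval reached a log2 of 1 in either direction.

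The step from 2 to 12 hai shares the 12 hai libraries with the choice, which held them to at most 2 times the dry seed, and its estimates are given as a description. They ran from −0.05 for BnaC04g07270D to 0.70 for BnaC05g48940D (SE 0.17), with BnaC01g04250D at 0.55 (SE 0.24) and BnaCnng35940D at 0.46 (SE 0.16). None of the 12 was called by limma, where 13.1% of all genes tested were called. An unadjusted p under 0.05 was found for 3 of them, against 43.4% of all genes. An adjusted p under 0.05 was found for 2, against 34.2% of all genes. The sign of these estimates rests on the scaling. In TPM 10 of 12 were positive, with a median of 0.20 beside 0.25 for all genes. After median-of-ratios scaling, which brings the median of all genes to 0.00, 2 of 12 were positive and their median was −0.27.

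The level of the 12 RNAs was compared between accessions with the 5 time points in the place of replicates. These are stages of the same accession with 1 library each. The errors and p-values therefore measure how evenly a difference holds over the times, not the spread between replicates of an accession. At 4 of these times the choice held every accession to the same bounds, which limits how far the accessions could differ, so that the counts and p-values describe these fits and are no independent test. No estimate was beyond a log2 of 1. C129 against C032 gave 0 of 12 genes called by limma, where 6.99% of all genes tested were called. An unadjusted p under 0.05 was found for 5 of the 12, against 45.7% of all genes. The estimates ran from −0.41 (BnaC05g13130D) to 0.44 (BnaC04g09610D). With no limit on size 3 had an adjusted p under 0.05, as had 32.4% of all genes. They were BnaC05g48940D (limma log2 0.43, SE 0.13, adjusted p = 0.0257), BnaC04g09610D (0.44, SE 0.16, adjusted p = 0.0444) and BnaC03g72710D (0.36, SE 0.13, adjusted p = 0.0497). Of the 12 alternatives run, 5 kept BnaC05g48940D under 0.05 (limma adjusted p from 0.0215 to 0.666), 4 kept BnaC04g09610D (0.0133 to 0.619) and 3 kept BnaC03g72710D (0.0359 to 0.929).

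C129 against C033 likewise gave 0 of 12 genes called by limma, where 5.95% of all genes were called. An unadjusted p under 0.05 was found for 6 of the 12, against 56.0% of all genes. The same 3 genes had the largest estimates. BnaC05g48940D stood at 0.71 (SE 0.13, limma adjusted p = 0.00117), BnaC03g72710D at 0.71 (SE 0.13, adjusted p = 0.00100) and BnaC04g09610D at 0.60 (SE 0.16, adjusted p = 0.00722). BnaC05g13130D had an estimate of 0.46 (SE 0.18) with a limma adjusted p = 0.0518. BnaCnng35940D had 0.39 (SE 0.12, limma adjusted p = 0.0203), and the 4 of 12 under 0.05 compare with 46.9% of all genes at such an adjusted p. BnaC03g72710D was higher in C129 at 5 of 5 times, with for example 41.8 TPM in C129 and 21.8 TPM in C033 in the dry seed. C129 was higher than both other accessions across the whole data set, with median log2 differences over all genes of 0.36 against C033 and 0.26 against C032. After median-of-ratios scaling these medians were 0.01 and 0.02, and the number of positive estimates among the 12 fell to 4 in each comparison, against 10 (C033) and 8 (C032) in TPM. None of the genes with an adjusted p under 0.05 in TPM in either comparison then had an adjusted p under 0.05. The genes that did were BnaC05g13130D for C129 against C032 (log2 −0.70, limma adjusted p = 0.0145) and BnaC03g74760D for C129 against C033 (log2 −0.64, limma adjusted p = 0.0259).

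C033 against C032 gave 0 of 12 genes called by limma, where 5.43% of all genes were called. An unadjusted p under 0.05 was found for 2 of the 12, against 27.2% of all genes. BnaC05g13130D came nearest, with a log2 difference of −0.87 (SE 0.18, 95% interval −1.26 to −0.48, limma adjusted p = 0.00403), and was lower in C033 at 4 of 5 times. The adjusted p was above 0.05 with a smaller pseudocount, with limma adjusted p = 0.0660 for 0.1 TPM and 0.522 for 0.01 TPM. At 72 hai both values were near the floor. Among all genes 15.2% had an adjusted p under 0.05. With the 0, 2 and 12 hai libraries alone its difference was −1.08 (limma adjusted p = 0.00136) and it was called. The other 11 estimates lay between −0.35 and 0.16. BnaA03g35430D had estimates within 0.02 of 0 in all 3 comparisons of accessions and intervals that stayed between −0.47 and 0.46.

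**Figure D4:**
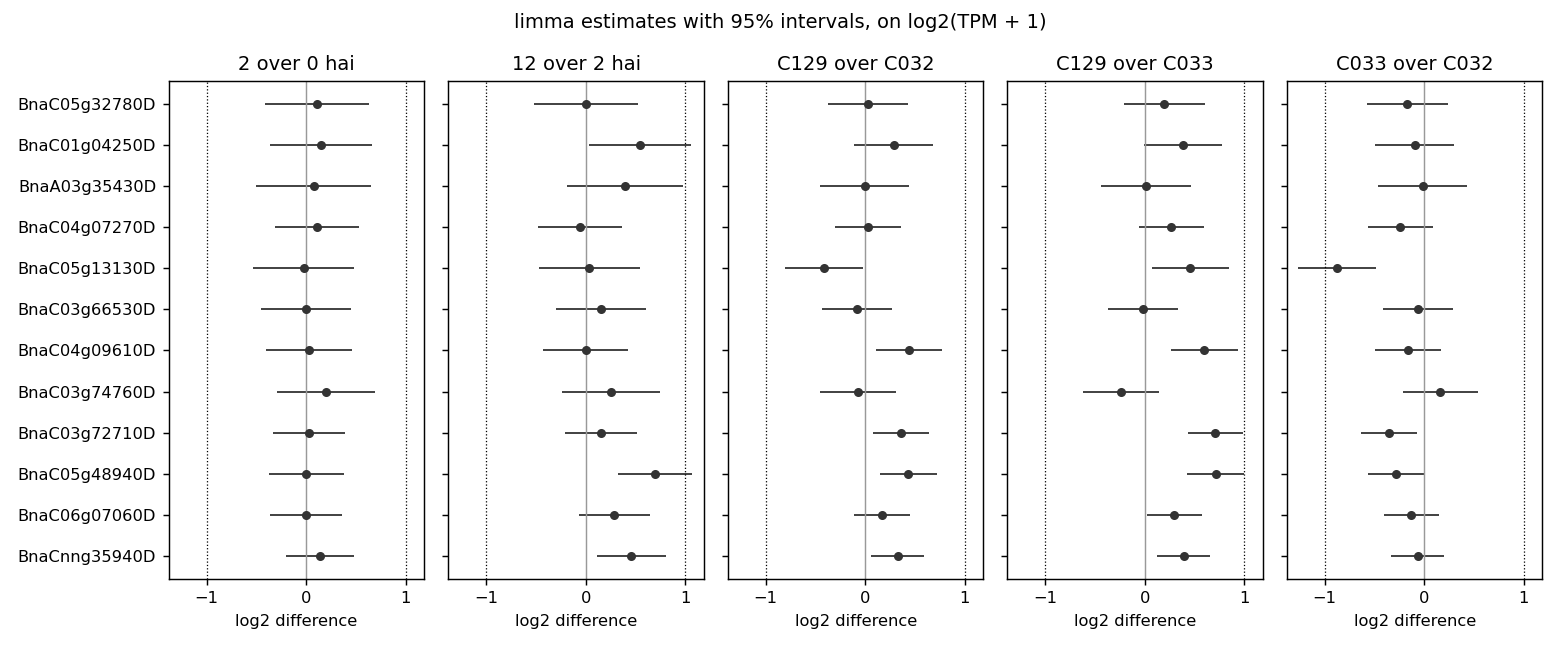
limma log2 differences on log2(TPM + 1) for the 12 genes, with 95% intervals, for 2 over 0 hai, 12 over 2 hai, C129 over C032, C129 over C033 and C033 over C032; dotted lines mark a log2 of 1 in each direction. All estimates lie within the dotted lines, BnaC05g13130D comes closest on the low side in C033 over C032 at −0.87, and the signs in 12 over 2 hai depend on the scaling (10 of 12 positive in TPM and 2 of 12 after median-of-ratios scaling for 12 over 2 hai).

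Of the 23 nearest gene models on either side of the 12, 2 (8.70%) were stored in each accession, against 8.72% of all coding genes, and 0 were both stored and kept, against 3.85%. A mean under 1 TPM in the dry seed was found in 12 of them (52.2%), against 64.4% of all coding genes. Among the neighbours was BnaCnng35930D, 406 bases from BnaCnng35940D on the same strand, with 21.1 ± 5.41, 19.2 ± 5.54, 31.8 ± 4.29, 3.35 ± 0.956 and 4.24 ± 1.48 TPM at 0, 2, 12, 36 and 72 hai (SD, n = 3). BnaC05g48950D, 228 bases from BnaC05g48940D on the same strand, was at 12.0 ± 2.09, 10.2 ± 1.16, 17.4 ± 5.59, 1.56 ± 0.690 and 2.91 ± 0.572 TPM. Both neighbours were also low at 36 hai, and they missed 2 (BnaCnng35930D) and 4 (BnaC05g48950D) of the bounds. Whether reads of neighbouring models were separated in the counting was not tested. The opposite pattern stood 57 bases from BnaC03g74760D, where BnaC03g74750D on the other strand averaged 43.1 ± 14.9 TPM at 36 hai and 13.1 ± 5.53 TPM at 0 hai.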

How the data were processed

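RNA was measured in 15 libraries of seeds and seedlings. As described by the authors, 100-bp paired-end reads were cleared of adapters, mapped by HISAT on the B. napus genome of Chalhoub et al. before StringTie quantified each gene. Tool versions are not given in the sources used here. The TPM values were deposited by the authors as StringTie gave them. They share 1 total between coding and non-coding genes, so that a change of the non-coding part moves every coding gene. The coverage signal, also deposited by the authors, is the mean read depth of a gene and served only for read equivalents and their exact Poisson intervals. No replicate counts were used, and whether counting respected strand is not stated.

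The 12 genes, the gene lists and the tests were chosen with earlier results of these data known. Changes were tested with limma 3.58.1 (R 4.3.3, trend and robust options, pseudocount of 1 TPM, Benjamini-Hochberg adjustment over 53233 genes that reached 1 TPM in 3 or more libraries, 8 residual degrees of freedom). On simulated data for 0 to 2 hai limma recovered 85% of 100 genes changed by a log2 of 1.5 and 97% of 100 changed by 2, with 7 false calls among 52497 genes. The simulation used independent normal noise and changed only genes with a mean log2(TPM + 1) above 3. In the measured data 1.70% of genes had an unadjusted limma p under 0.05 at this step, fewer than unchanged genes give by chance. The simulated recovery may therefore not hold for these libraries. All 12 genes were named, with genes next to a bound. Descriptive steps used Python 3.11.15, numpy 2.4.6, pandas 2.3.3, scipy 1.17.1 and matplotlib 3.10.9.

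The accession is a shared line across times and was kept as a term. Alternatives were other pseudocounts, filters, scalings and bounds, subsets of times, and leaving out each accession or time. Product names, promoters and proteins were not used here, so that neither the gene lists by product nor promoter motifs were applied. Subgenome and linkage group were read from locus names.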

Additional observations from a re-analysis of the deposited data

Results flagged for a closer look

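Where C129 and C032 moved in opposite directions over the same step, the genes were listed for a closer look. Each accession has 1 library per time and the differences were not tested. From 0 to 2 hai the ratio was below 1 in C129 and above 1 in C032 in 6 genes, with 0.98 in C129 against 1.25 in C032 for BnaC04g07270D, 0.91 against 1.07 for BnaC05g13130D and 0.96 against 1.18 for BnaC04g09610D. BnaC03g72710D had 0.93 in C129 against 1.10 in C032, BnaC06g07060D 0.98 against 1.06 and BnaCnng35940D 0.94 against 1.27. After median-of-ratios scaling 4 of these 6 still pointed in opposite directions.

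The ratio of 12 to 0 hai was likewise below 1 in C129 and above 1 in C032 in 6 genes. It was 0.97 in C129 against 1.45 in C032 for BnaC05g32780D, 0.84 against 1.33 for BnaC04g07270D and 0.83 against 1.44 for BnaC05g13130D. BnaC03g66530D had 0.91 in C129 against 1.80 in C032, BnaC04g09610D 0.81 against 1.22 and BnaC03g72710D 0.98 against 1.36. Only 1 of the 6 remained opposite after median-of-ratios scaling.

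From 36 to 72 hai 5 genes moved in opposite directions, and all 5 did so under median-of-ratios scaling as well. C129 went up and C032 down in BnaC01g04250D (2.08 in C129 against 0.68 in C032), BnaC04g07270D (1.61 against 0.79), BnaC03g74760D (1.40 against 0.27) and BnaC03g72710D (1.18 against 0.84). BnaC04g09610D moved the other way, with 0.60 in C129 against 1.47 in C032. Not all of these moves went beyond counting error. Exact Poisson intervals at 36 and 72 hai overlapped for BnaC03g74760D in C129 (0.442 to 0.991 and 0.654 to 1.28 TPM). They also overlapped for BnaC03g72710D in both accessions and for BnaC04g09610D in C032. For BnaC01g04250D they were apart in both accessions. For BnaC04g07270D they were apart in C129, but in C032 only narrowly (9.23 to 11.4 and 7.24 to 9.03 TPM). Both reads of a pair enter the read equivalents, so that the intervals may be too narrow to separate the C032 values.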

How the results depend on the processing

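Which genes met the bounds depended strongly on the scaling and on the bounds. Median-of-ratios scaling gave 11 genes, of which only 4 were among the 12 (BnaC01g04250D, BnaA03g35430D, BnaC03g74760D and BnaC05g48940D), and coding genes rescaled to a common total gave 16 with 9 of the 12. A window of 0.5 to 2 at 12 hai gave 51 genes and a loss to 20% at 36 hai 59, all 12 included, while a loss to 5% left 2 (BnaC05g13130D and BnaC06g07060D). A minimum of 5 TPM in the dry seed gave 17 genes with all 12, and of 20 TPM 9. With the rule applied without 1 accession, 28 genes met it without C129, 28 without C033 and 36 without C032, each time with all 12. The number of the 12 genes called in a comparison was 0 under every alternative, except that C033 against C032 had 1, BnaC05g13130D, with the 0, 2 and 12 hai libraries only (log2 −1.08) and without 72 hai (log2 −1.11), so that leaving out a time gave 0 to 1. For BnaCnng35940D median-of-ratios scaling turned C129 against C033 to −0.068 and 2 to 12 hai to −0.0038. Without the accession term (no replicate block) 0 of 12 genes were called from 0 to 2 hai and 0 of 12 from 2 to 12 hai. Over all alternatives 4.02 to 11.9% of all genes were called for C129 against C033 and 8.75 to 23.4% from 2 to 12 hai. Depth limits late values: at 72 hai 7 of the 36 values rest on fewer than 20 read equivalents, and at 36 hai 2 of 36.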
